A study of Mus musculus with 4 samples.

Results

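Mast cells are resident immune cells of connective tissue that store proteases, histamine and heparin-like proteoglycan in granules and release them when antigen cross-links the IgE on their surface. Their growth and survival depend on Kit, the receptor of stem cell factor, and their gene program depends on the transcription factor GATA2. In white adipose tissue they lie along vessels and between adipocytes. The 10 genes described here were chosen by name for their place in this cell: the proteases Cpa3, Mcpt4, Cma1, Tpsb2 and Tpsab1, the receptor genes Kit, Fcer1a and Ms4a2, the histamine-forming enzyme Hdc, and Gata2. All 10 were found among the 35869 genes of the deposited files. The choice was made with earlier results of these data known, so the shares of all genes set beside the 10 are descriptive.

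RNA-seq was performed on CD45+ cells that were enriched with CD45 microbeads from the stromal vascular fraction of epididymal white adipose tissue (eWAT) of male WT C57BL/6 mice. The mice were fed normal diet (ND) or high-fat diet (HFD) for 12 weeks from 8 weeks of age, with 2 libraries per diet. No mutant, transgene or drug was part of either group, and the number of mice per library is not given in the sources used here, so p-values measure only the spread between these libraries. Values are TPM, a unit in which reads are divided by gene length and every library is scaled to the same total. They are therefore relative amounts, and fewer mast cells, less mast cell RNA per cell and more RNA of other cells cannot be told apart.

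The share of genes with changed expression was large in these libraries. A differentially expressed gene (DEG) had a Benjamini-Hochberg adjusted p under 0.05 in limma and a change of at least 1.5-fold on the log2(TPM + 1) scale. By this rule 18.4% of the 16849 genes tested were DEGs, with 10.3% lower and 8.08% higher in HFD. Of the DEGs 43.9% were higher in HFD, and without HFD replicate 2 this share was 62.6%. At the depth of these libraries, 1 read on a gene of 1 kb corresponded to between 0.0607 and 0.0711 TPM. Ptprc, the gene of CD45, was present at 54.5 and 59.4 TPM in ND and at 55.3 and 53.7 TPM in HFD. Libraries also held RNA of other cells. The summed level of 10 spermatid genes was 2071 and 2103 TPM under ND, against 7868 TPM for the first HFD library and 2351 TPM for the second. That of 8 fibroblast genes was 606 and 651 TPM under ND, against 3059 TPM for the first HFD library and 6101 TPM for the second. That of 8 genes of testis somatic cells was lower in HFD, at 276 and 241 TPM under ND against 209 and 158 TPM under HFD. RNA of cells outside the lists used here, such as those of the epididymis, was not surveyed.

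Mast cell genes were lower in CD45+ cells of HFD-fed mice as a group. Both HFD values lay below both ND values for all 10 genes, which was the case for 32.8% of all genes tested. All 10 passed the filter on low values (at least 1 TPM in at least 2 libraries), Ms4a2 only through its ND libraries, where it is high. Of the 10 genes 9 were DEGs lower in HFD, Ms4a2 among them, against 10.3% of all genes tested, and 0 were higher in HFD in limma, also at an unadjusted p under 0.05. Their median log2 fold change was -1.32, and that over all genes tested was 0.06. Summed over the 10 genes, the level was 1650 and 1667 TPM under ND against 410 and 530 TPM under HFD, so that the mean in ND was 3.53 times that in HFD. The 5 proteases made up at least 92.5% of this sum in each library. At a limit of 2-fold, 7 of the 10 genes were lower in HFD, against 5.32% of all genes tested. Without the filter on low values the count of DEGs among the 10 was 5, against 2324 of the 29097 genes then tested. Without either ND library all 10 fold changes kept their direction, but the calls were lost, as they were over all genes tested.

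**Figure D1:**
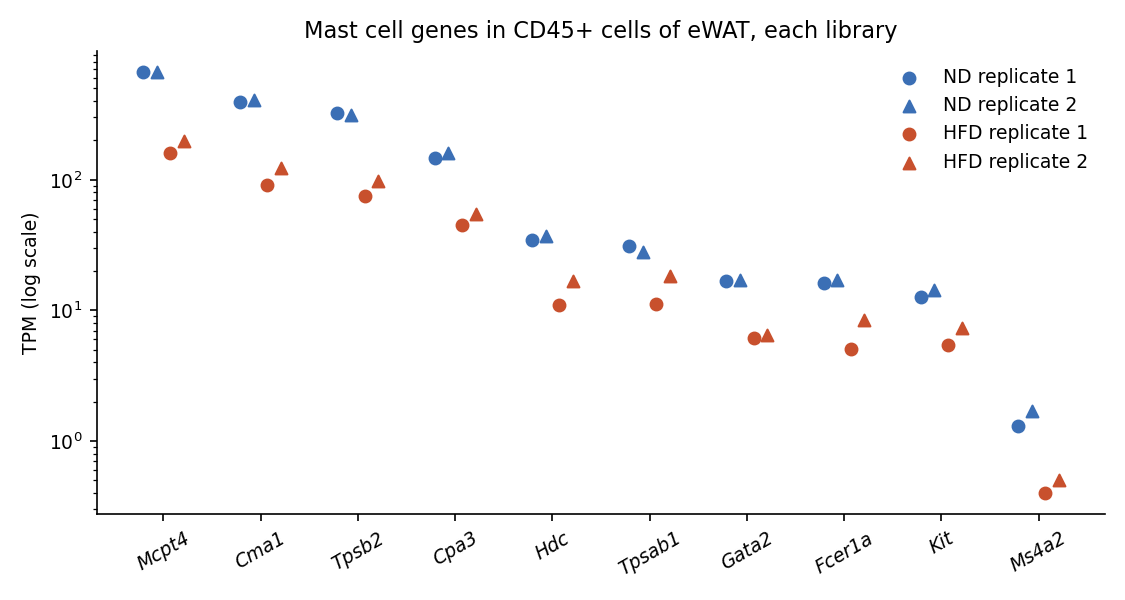
TPM of the 10 mast cell genes on a log scale, with 1 point per library, ND in blue and HFD in orange, replicate 1 as circles and replicate 2 as triangles. For every gene both orange points lie below both blue points, from Mcpt4 at 670.6 TPM in ND replicate 1 to Ms4a2 at 0.4 TPM in HFD replicate 1.

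The most abundant of the 10 genes were the chymases and the tryptase of connective tissue mast cells. Mcpt4 encodes the chymase mMCP-4 and lies at chr14:56059629-56062313 on the minus strand (GENCODE vM21, mm10, as for all genes below). It had 670.6 and 669.7 TPM in the ND replicates and 159.6 and 196.6 TPM in the HFD replicates. The ND libraries were nearly equal, and the gap between the diets was far wider than that between the HFD libraries. The mean was 670 ± 0.636 TPM under ND and 178 ± 26.2 TPM under HFD (SD, n = 2 each). This corresponded to a log2 difference of -1.91 (standard error 0.12, adjusted p = 0.00714 in limma). By fold change Mcpt4 ranked 241 from the lowest of the 16849 genes tested.

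Cma1, the gene of the chymase mMCP-5, whose product is stored together with carboxypeptidase A3, lies in the same cluster on chromosome 14, from 55941451 to 55944675. It stood at 396.5 and 409.4 TPM under ND against 91.8 and 123.2 TPM under HFD. Its log2 fold change was -1.91 (standard error 0.17, adjusted p = 0.0110 in limma), the same size as that of Mcpt4 to 2 decimals. No stretch of 75 bases was shared between the GENCODE transcripts of both chymases, and the longest identical run was 27 bases.

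Tpsb2 encodes the tryptase mMCP-6, a tetramer bound to heparin in the granule, and lies on the plus strand of chromosome 17 from 25366305 to 25369098. It stood at 322.2 and 311.3 TPM under ND against 74.8 and 97.5 TPM under HFD. It fell by 1.88 on the log2 scale (standard error 0.15, adjusted p = 0.00977 in limma). The neighboring Tpsab1, the gene of the tryptase mMCP-7, was at a far lower level, and its HFD libraries lay farther apart. RefSeq lists it as a transcribed pseudogene in C57BL/6J, a strain that does not make the protein because of a splice site mutation, whereas GENCODE lists it as protein coding. It stood at 31.1 and 28.0 TPM under ND against 11.3 and 18.5 TPM under HFD (HFD libraries 1.64 times apart). Its change of -0.98 on the log2 scale (standard error 0.27, 95% interval -1.78 to -0.18, adjusted p = 0.0811 in limma) did not pass the threshold, and it was the only one of the 10 genes that did not. Without HFD replicate 2 the fold change of Tpsab1 was -1.31 and passed (adjusted p = 0.0341), and without HFD replicate 1 it was -0.65. Over all their GENCODE transcripts, the tryptase genes shared no stretch of 75 bases, with a longest identical run of 39 bases, so that reads shorter than this could be assigned to either gene.

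Cpa3 encodes carboxypeptidase A3, the exopeptidase of the mast cell granule, and lies on the minus strand of chromosome 3 from 20215620 to 20242181. It stood at 148.0 and 161.6 TPM under ND against 44.7 and 54.7 TPM under HFD. The log2 fold change was -1.63 (standard error 0.13, adjusted p = 0.00936 in limma), with a mean in ND 3.11 times that in HFD. Genes that overlap or adjoin Cpa3 were lower in HFD too. The long noncoding RNA gene Gm31320, which RefSeq places from 20222277 to 20229475 within Cpa3, stood at 118.0 and 132.8 TPM under ND against 34.2 and 39.2 TPM under HFD. The microRNA gene Mir7007, which begins at the base next to a Cpa3 exon, went from 542.4 and 638.8 TPM under ND to 161.6 and 198.0 TPM under HFD. Whether counting used strand is not given in the sources used here, nor is the treatment of reads that touch several genes. Mir7007 lies on the strand of Cpa3 and shares 0 exon bases with it, so strand would not separate reads that span both. The levels of these genes and of Cpa3 are uncertain to that extent. None of the other 9 genes overlaps another gene in GENCODE vM21, and in RefSeq Gata2 overlaps Gm38708, which was listed at 0 in each library.

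The 3 receptor genes were DEGs lower in HFD, with log2 fold changes between -1.22 and -0.78, of which Ms4a2 entered the test only through its ND values. Kit encodes the receptor tyrosine kinase for stem cell factor and lies on the plus strand of chromosome 5 from 75574916 to 75656722. It stood at 12.6 and 14.3 TPM under ND against 5.4 and 7.4 TPM under HFD, and the nearest values of the diets were 7.4 and 12.6 TPM. The log2 fold change of Kit was -0.98 (standard error 0.18, 95% interval -1.51 to -0.44, adjusted p = 0.0379 in limma). The call was lost without HFD replicate 1 (-0.78, adjusted p = 0.0694) and without the filter on low values (adjusted p = 0.0767), after median-ratio scaling (adjusted p = 0.0507) and after quantile normalization (adjusted p = 0.0593), with the direction kept. Kit is also expressed by hematopoietic progenitors and by Leydig cells of the testis. Of 8 progenitor genes, 4 passed the filter, of which 1 was a DEG, lower in HFD, with a range of the summed level from 61.6 to 63.9 TPM in ND and from 73.7 to 106.7 TPM in HFD. The DEG was Gfi1b, a transcription factor gene of progenitors, erythroid cells and megakaryocytes, which fell from 5.6 TPM in both ND libraries to 0.8 and 0.6 TPM in HFD and passed the filter only through ND. Cd34 stood at 42.8 and 44.2 TPM under ND against 63.9 and 93.5 TPM under HFD (adjusted p = 0.0744 in limma), and Flt3 at 9.4 and 10.3 TPM under ND against 5.2 and 8.2 TPM under HFD. The 8 genes of testis somatic cells summed to 276 and 241 TPM under ND against 209 and 158 TPM under HFD, most of it from the Leydig cell gene Insl3, and 1 of the 5 tested, Star, was a DEG, higher in HFD. Cyp17a1 stood at 7.7 and 7.3 TPM under ND against 14.7 and 7.9 TPM under HFD. The part of these cells in the level of Kit was not tested.

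Fcer1a and Ms4a2 encode the chains that are particular to the high-affinity IgE receptor FceRI, the alpha chain that binds IgE and the beta chain that amplifies its signal. Fcer1a, on the minus strand of chromosome 1 from 173221284 to 173227214, stood at 16.1 and 17.2 TPM under ND against 5.1 and 8.4 TPM under HFD. The ND libraries lay close together and the HFD libraries 1.65 times apart. Its log2 fold change was -1.22 (standard error 0.25, adjusted p = 0.0477 in limma), just inside the threshold, and the adjusted p ranged from 0.0340 to 0.0967 over the other processing settings. Ms4a2, on the minus strand of chromosome 19 from 11615523 to 11623719, was the lowest of the 10 genes, at 1.3 and 1.7 TPM under ND against 0.4 and 0.5 TPM under HFD. These values rest on an estimated 52.1 and 78.8 reads for the ND libraries, against 18.2 and 19.8 for the HFD libraries. The ratio of its means was 3.33, within the range of the proteases, although its change of -0.78 on the log2 scale (standard error 0.14, adjusted p = 0.0359 in limma) was the smallest of the 10. The added 1 accounts for this contrast by construction, since a pseudocount of 0.1 gave -1.54 and one of 5 gave -0.25, at which the change was under 1.5-fold. Without HFD replicate 1 or 2 Ms4a2 was at -0.73 and -0.83 and was not a DEG (adjusted p = 0.0977 and 0.0748), nor was it without the filter on low values (adjusted p = 0.0590) or after quantile normalization (-0.63, adjusted p = 0.0843).

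Hdc encodes histidine decarboxylase, the enzyme that makes histamine, and lies on the minus strand of chromosome 2 from 126593667 to 126619299. It stood at 34.9 and 37.0 TPM under ND against 11.0 and 16.7 TPM under HFD. Both HFD libraries lay under the ND libraries, and they were 1.52 times apart. Its log2 fold change was -1.34 (standard error 0.22, adjusted p = 0.0323 in limma), and without the filter on low values the call was lost (adjusted p = 0.0698). Neutrophils and basophils can express Hdc as well. Of 9 neutrophil genes 7 were tested, and 5 were DEGs lower in HFD, among them S100a9 (-1.69), S100a8 (-1.31) and Retnlg (-1.21), and also Cxcr2, which passed the filter only through ND. The summed level of the 9 genes was 74.6 and 98.1 TPM under ND against 31.6 and 34.0 TPM under HFD, and the part of neutrophils in the fall of Hdc was not tested.

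Gata2, the transcription factor gene of the set, lies on the plus strand of chromosome 6 from 88193891 to 88207032. It stood at 16.8 and 17.2 TPM under ND against 6.2 and 6.5 TPM under HFD, with the closest agreement between HFD libraries among the 10 genes. The log2 fold change was -1.29 (standard error 0.07, adjusted p = 0.00621 in limma). Endothelial cells also express Gata2. Of 10 endothelial genes 0 were DEGs in limma, their summed level was 588 and 590 TPM under ND against 672 and 744 TPM under HFD, and their median log2 fold change was 0.15. At an unadjusted p under 0.05, 4 of them were higher and 2 lower in HFD, as 7133 of the 16849 genes tested passed in either direction. Pecam1 stood at 18.5 and 19.6 TPM under ND against 20.3 and 22.9 TPM under HFD, and Cldn5, the most abundant, stood at 278.0 and 275.8 TPM under ND against 328.6 and 383.5 TPM under HFD. Cdh5 stood at 80.8 and 82.0 TPM under ND against 111.6 and 112.7 TPM under HFD. Other genes of the list were lower in both HFD libraries, such as Vwf, chosen after its values were seen, with 12.0 and 13.1 TPM under ND against 9.2 and 8.2 TPM under HFD.

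GATA factors bind short words around the letters GATA, and the sequences before the transcription starts were read for them because Gata2 and genes of the mast cell program were lower together. RefSeq promoter entries for GRCm38.p6 were found for 8 of the 10 genes, in 10 windows of 250 bases that end at the base before a start. The words searched were AGATAA with its variant AGATAG, and TGATAA with its variant TGATAG, each on both strands. At least 1 of them stood in the windows of 6 of the 8 genes, Cpa3, Mcpt4, Cma1, Fcer1a, Ms4a2 and Hdc, and in none of those of Kit and Gata2. Of all 32851 promoter windows of this length, 26.5% held at least 1 of these words, and of the 10 windows of the set 6 did. A match is a run of letters and not evidence of binding. Shown are the windows of Cpa3 and Mcpt4, as granule proteases that fell, and of Fcer1a and Ms4a2, as both chains of FceRI, each in the direction of transcription with the words in capitals, where TTATCT is AGATAA on the opposite strand.
Cpa3 chr3:20242182-20242431, minus strand: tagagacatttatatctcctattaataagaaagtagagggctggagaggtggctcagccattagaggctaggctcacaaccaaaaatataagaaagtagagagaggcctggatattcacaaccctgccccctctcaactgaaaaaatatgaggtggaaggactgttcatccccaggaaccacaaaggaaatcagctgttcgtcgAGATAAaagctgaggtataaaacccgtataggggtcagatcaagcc
Mcpt4 chr14:56062311-56062560, minus strand: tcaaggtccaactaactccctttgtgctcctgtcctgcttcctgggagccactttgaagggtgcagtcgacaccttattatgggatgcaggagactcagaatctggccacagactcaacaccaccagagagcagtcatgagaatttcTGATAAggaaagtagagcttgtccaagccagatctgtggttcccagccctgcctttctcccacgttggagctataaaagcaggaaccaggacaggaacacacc
Fcer1a chr1:173227230-173227479, minus strand: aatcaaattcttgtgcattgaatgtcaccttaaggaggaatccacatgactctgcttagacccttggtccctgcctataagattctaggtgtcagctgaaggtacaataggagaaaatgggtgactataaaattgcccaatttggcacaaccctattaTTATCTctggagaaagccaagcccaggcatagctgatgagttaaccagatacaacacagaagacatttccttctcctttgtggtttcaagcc
Ms4a2 chr19:11623720-11623969, minus strand: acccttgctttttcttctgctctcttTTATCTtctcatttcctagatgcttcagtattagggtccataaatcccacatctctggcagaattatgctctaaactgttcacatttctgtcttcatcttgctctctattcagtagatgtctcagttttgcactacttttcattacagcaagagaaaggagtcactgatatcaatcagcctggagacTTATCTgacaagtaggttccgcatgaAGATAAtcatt
In the window of Cpa3 the word AGATAA runs from position -46 to -41 relative to the start, and a TATAAA follows at -31 to -26. In that of Mcpt4 the word TGATAA runs from -103 to -98, and a TATAAA follows at -32 to -27. The word TATAAA, searched on the given strand, stood in 7.59% of all windows and in those of Cpa3, Mcpt4 and Fcer1a. The window of Ms4a2 held AGATAA in 3 places, from -224, from -37 and, on the given strand, from -11. The E-box words CACGTG and CATGTG, which MITF can bind, stood in 17.6% of all windows and, among the 8 genes, in that of Fcer1a.

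**Figure D2:**
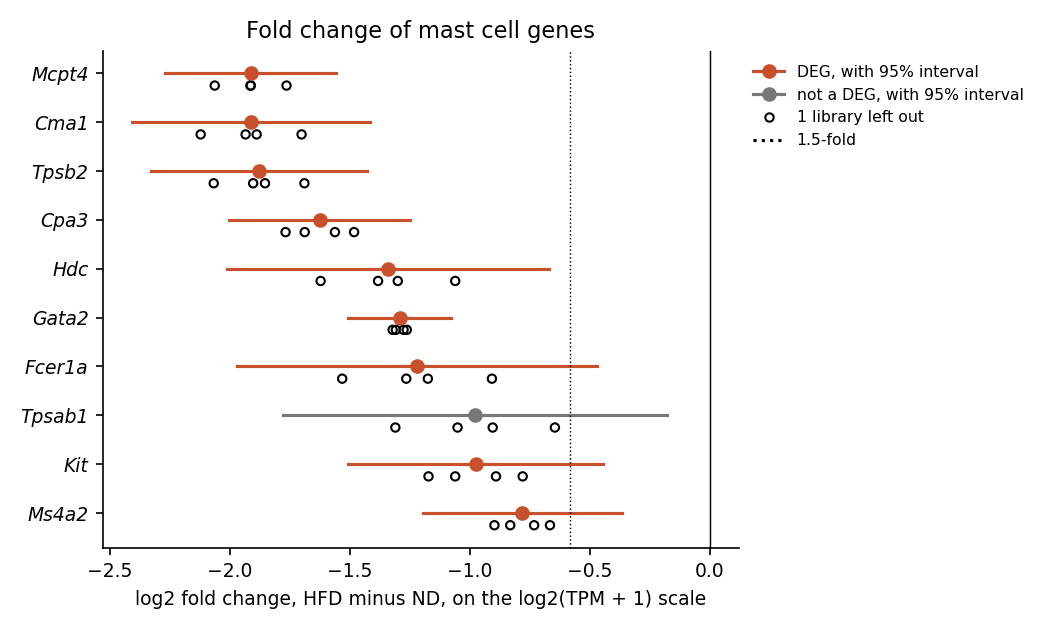
Log2 fold changes between HFD and ND on the log2(TPM + 1) scale for the 10 mast cell genes, as filled points with 95% intervals from limma, and as open points with 1 library left out. The proteases Mcpt4, Cma1, Tpsb2 and Cpa3 lie lowest, between -1.91 and -1.63, and Tpsab1, in gray, was not a DEG.

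Fold changes among the 10 genes ranged from -1.91 to -0.78 on the log2 scale. The median log2 fold change was -1.88 for the 5 proteases and -1.22 for the 5 others. Ratios within a library do not depend on how the libraries are scaled to each other, so each gene was also set against Kit of the same library. Mcpt4 was 53.2 and 46.8 times the TPM of Kit in ND and 29.6 and 26.6 times in HFD. For Cma1 the ratio was 31.5 and 28.6 in ND and 17.0 and 16.6 in HFD, and for Tpsb2 25.6 and 21.8 in ND and 13.9 and 13.2 in HFD. Cpa3 went from 11.7 and 11.3 times Kit to 8.28 and 7.39 times. For these 4 proteases the ratios of the diets did not overlap, whereas for Tpsab1 they did, at 2.47 and 1.96 in ND and 2.09 and 2.50 in HFD. Hdc, at 2.77 and 2.59 times Kit in ND and 2.04 and 2.26 times in HFD, and Fcer1a, at 1.28 and 1.20 in ND and 0.944 and 1.14 in HFD, were likewise lower in both HFD libraries than in both ND libraries, but by smaller factors. The ratios of Gata2 (1.33 and 1.20 in ND, 1.15 and 0.878 in HFD) and of Ms4a2 (0.103 and 0.119 in ND, 0.0741 and 0.0676 in HFD) did not overlap either. The share of all genes tested whose ratio to Kit does not overlap was not computed. In plain TPM, both HFD values lay below both ND values for 32.8% of all genes tested, so a lack of overlap is common. All these ratios share the value of Kit, a gene with one of the smaller fold changes of the set, and against Cpa3 the picture differed. The mean ratio to Cpa3 in HFD, divided by that in ND, was 0.826 for Mcpt4 and Cma1, 0.842 for Tpsb2 and 0.937 for Ms4a2, but 1.54 for Tpsab1, 1.47 for Kit, 1.24 for Fcer1a, 1.19 for Hdc and 1.17 for Gata2. Whether a gene is lower in HFD within a library thus depends on the gene it is set against, and the differences between genes in their fold change were not tested.

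**Figure D3:**
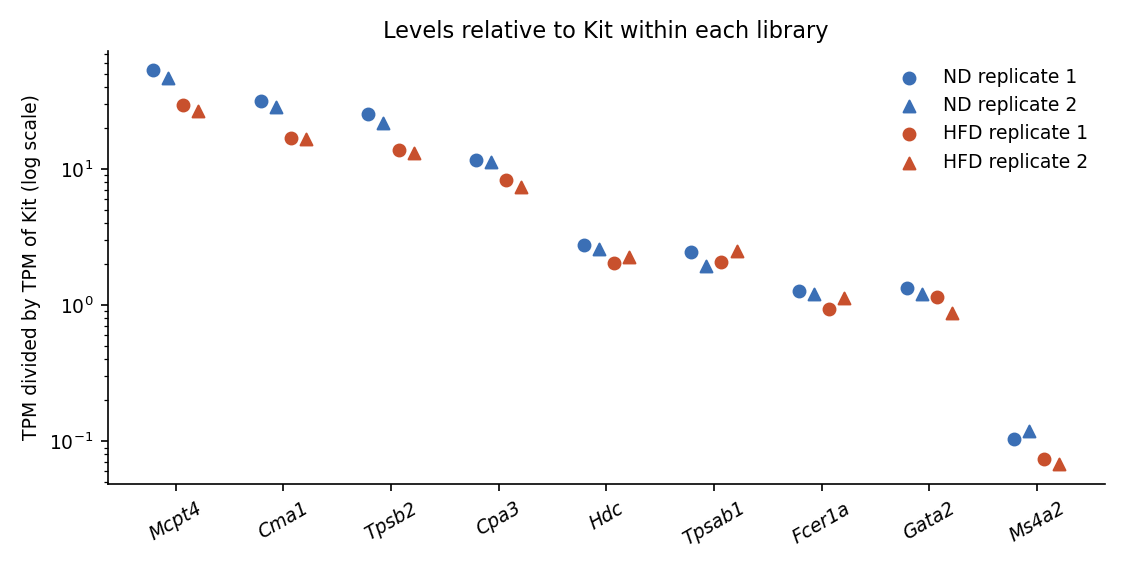
TPM of 9 mast cell genes divided by the TPM of Kit in the same library, on a log scale, with 1 point per library, ND in blue and HFD in orange. The ratios of Mcpt4, Cma1, Tpsb2 and Cpa3 are lower in both HFD libraries than in both ND libraries, and those of Tpsab1 overlap.

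Within the set, the HFD libraries differed from each other in a common direction. All 10 genes had their higher HFD value in replicate 2, by factors from 1.05 for Gata2 to 1.65 for Fcer1a with a median of 1.32. In ND, 7 of the 10 genes were higher in replicate 2. Spermatid RNA was higher in HFD replicate 1 and fibroblast RNA in HFD replicate 2, as given above, and their part in this difference was not tested. Without HFD replicate 1, 7 of the 10 genes were DEGs lower in HFD, since Kit and Ms4a2 no longer were, among 3051 DEGs over all genes. Without HFD replicate 2, 9 were, as Tpsab1 entered and Ms4a2 left, among 4232 DEGs over all genes. Without either ND library, 0 genes of the whole table were DEGs in limma, because the spread is then taken from the HFD pair alone, while all 10 fold changes kept their direction and 6 of the 10 genes had an unadjusted p under 0.05, as had 3862 and 4024 of all genes tested. An exact permutation test of a single gene cannot go below p = 0.333 with 2 libraries against 2.

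Genes with known roles in mast cells outside the set were mostly lower in HFD as well. Of 16 such genes, 12 passed the filter, of which 9 were DEGs lower in HFD and 2 were DEGs higher (median log2 fold change -1.18). Over all genes tested, 10.3% were DEGs lower in HFD and 8.08% were DEGs higher. Of the 9, Tpsg1, Rgs13 and Tph1 passed the filter only through ND, where they are high. Mrgprb1, a receptor gene of the Mas-related family, stood at 18.6 and 20.2 TPM under ND against 5.1 and 5.8 TPM under HFD (-1.66, adjusted p = 0.00682 in limma). Mrgprb2, whose product senses cationic peptides and drugs on connective tissue mast cells, and Il1rl1, the gene of the interleukin-33 receptor, were picked after their values had been seen and fell by 1.43 and 1.45 on the log2 scale. Slc18a2, the vesicular transporter that loads histamine into granules, stood at 12.4 and 12.8 TPM under ND against 4.3 and 4.5 TPM under HFD (-1.33, adjusted p = 0.00646). Ltc4s and Alox5, enzymes of leukotriene synthesis that macrophages express too, had log2 fold changes of -3.01 and -2.49. Hpgds, the hematopoietic prostaglandin D synthase, and Mitf, a transcription factor of mast cells, macrophages and osteoclasts, rose by 1.54 and 0.70. Transcripts of the mucosal mast cell proteases were at or near 0, with Mcpt1 at most at 0.2 TPM and Mcpt2 listed at 0 in each library, and Mcpt9, another mast cell protease gene, was at most at 0.1 TPM.

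Signaling genes that mast cells share with other leukocytes were called in both directions or not at all. Among 15 genes of FceRI signaling, all tested, 2 were DEGs lower and 2 higher in HFD, and the median log2 fold change was 0.00. Fcer1g, the gamma chain that FceRI shares with Fc gamma receptors of macrophages, stood at 1777 and 1771 TPM under ND against 1410 and 1503 TPM under HFD, a change of less than 1.5-fold (-0.28). Lat, the adaptor of T cells and mast cells, fell from 18.8 and 17.9 TPM to 5.4 TPM in both HFD libraries, and Lat2, the adaptor of B cells, myeloid cells and mast cells, rose by 1.52 on the log2 scale. Plcg2 fell by 0.64 and Gab2 rose by 0.80. Lcp2, an adaptor downstream of Lat, stood at 206.7 and 213.9 TPM under ND against 141.6 and 140.3 TPM under HFD, under the 1.5-fold limit. Of 12 genes of Kit ligand and signaling, 1 was a DEG, Sh2b2, which was higher in HFD (0.71), and Kitl, the gene of stem cell factor, stood at 18.8 and 21.8 TPM under ND against 24.9 and 23.2 TPM under HFD (adjusted p = 0.185 in limma). Of its most abundant genes, the phosphatase gene Ptpn6 stood at 155.3 and 157.4 TPM under ND against 147.6 and 145.2 TPM under HFD and the adaptor gene Grb2 at 110.2 and 113.6 TPM under ND against 137.2 and 138.2 TPM under HFD, and neither was a DEG. Many genes of both lists are also expressed by macrophages, whose 8 marker genes, all tested, summed to between 11426 and 12699 TPM, with 2 DEGs higher, Adgre1 and Cd68, and 1 lower, Mrc1. The most abundant of them were Lyz2, at 7827 and 7618 TPM under ND against 6506 and 7125 TPM under HFD, and Cd14, at 2192 and 2171 TPM under ND against 1956 and 2432 TPM under HFD.

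Of 9 genes that transport, break down or sense histamine, 5 passed the filter and 3 of these were DEGs, each lower in HFD. They were Slc18a2 and the receptor genes Hrh1, with 4.8 and 4.9 TPM under ND against 1.1 and 0.6 TPM under HFD, and Hrh2, with 1.7 and 2.0 TPM under ND against 0.7 and 0.5 TPM under HFD. Hrh2 passed the filter only through ND. Hnmt, which methylates histamine, stood at 11.1 and 11.9 TPM under ND against 15.0 and 13.9 TPM under HFD (adjusted p = 0.0787 in limma). Among 12 genes of granule proteoglycan and protease activation, all tested, 2 were lower and 1 was higher in HFD (median log2 fold change 0.05). Srgn, the core protein of the granule proteoglycan serglycin and also a gene of macrophages, stood at 197.0 and 195.2 TPM under ND against 117.2 and 142.4 TPM under HFD (-0.60, adjusted p = 0.0404 in limma). Ctsc, the protease that activates chymases and other granule proteases, fell by 1.20, and Xylt1, a xylosyltransferase that starts the sugar chains, rose by 1.73 on the log2 scale.

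Basophils share Fcer1a, Ms4a2, Hdc and Gata2 with mast cells. Their protease gene Mcpt8 was at 0.2 and 0.3 TPM under ND against 0.1 and 0.2 TPM under HFD, and Cd200r3 was at most at 0.7 TPM, so that both lay near the floor. Prss34, another protease gene of basophils, stood at 13.9 and 15.3 TPM under ND against 1.8 and 2.9 TPM under HFD (-2.24, adjusted p = 0.0118 in limma). Il3ra stood at 11.2 and 10.8 TPM under ND against 11.9 and 11.4 TPM under HFD, and Il4 stood at 3.0 and 5.4 TPM under ND against 1.5 and 1.0 TPM under HFD (adjusted p = 0.0720). Of the 5 basophil genes, 3 were tested and 1 was a DEG. The list summed to 28.9 and 32.5 TPM under ND against 15.6 and 15.7 TPM under HFD, and its part in the shared genes was not tested. Of the 10 spermatid genes 0 were DEGs in limma, with 0 at an unadjusted p under 0.05. Prm1 stood at 469.8 and 475.4 TPM under ND against 1600 and 531.5 TPM under HFD, and Prm2 at 578.2 and 580.3 TPM under ND against 2160 and 677.2 TPM under HFD. Of the 8 fibroblast genes 6 were DEGs, each higher in HFD, among them Lum (3.83), Col1a1 (3.77), Col3a1 (3.36) and Col1a2 (3.20).

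**Figure D4:**
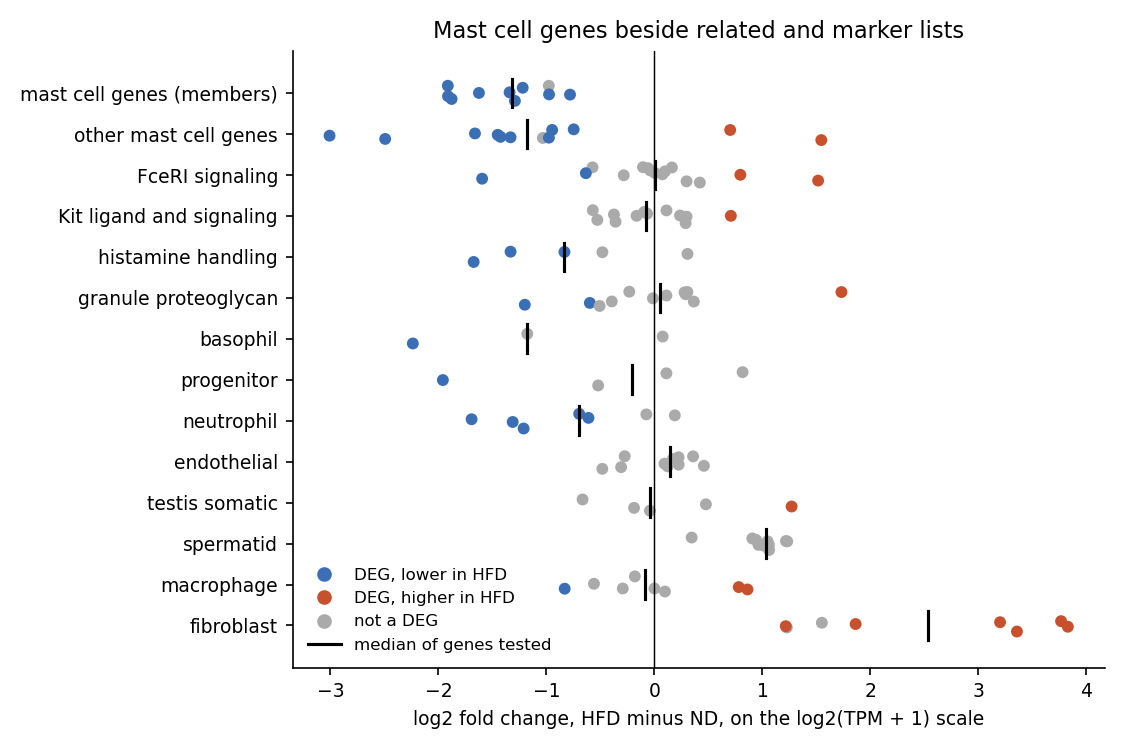
Log2 fold changes between HFD and ND on the log2(TPM + 1) scale for the tested genes of the mast cell set, of related lists and of marker lists of other cells, with DEGs lower in HFD in blue, DEGs higher in orange, other genes in gray and the median of each list as a black bar. The mast cell genes lie to the left with a median of -1.32, the FceRI signaling list lies around a median of 0.00, and the fibroblast list lies to the right with a median of 2.53.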

How the data were processed

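CD45+ cells of eWAT were sequenced in 2 libraries per diet. The authors trimmed reads with Trim Galore 0.4.2 and cutadapt 1.9.1, aligned them to mm10 with STAR 2.6.1e, removed duplicates, counted with featureCounts 1.6.2 and deposited TPM per gene. Libraries were made with a stranded mRNA kit. The annotation, the use of strand in counting and the treatment of reads that overlap several genes are not given in the sources used here. Removal of duplicates can lower the most abundant short transcripts.

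The files were joined by symbol, and 16849 of 35869 genes with at least 1 TPM in at least 2 libraries were tested as log2(TPM + 1) with limma 3.58.1 in R 4.3.3 (variance trend, two-sided, Benjamini-Hochberg). The scripts were tested on simulated data. Depth, at 37520920 to 46799169 reads per library, was estimated from the TPM steps of short microRNA genes (between 216 and 257 per library), and reads from the exon lengths of 26698 genes in GENCODE vM21, so both are approximate. The replicates differed by 1.51 (ND) and 3.49 (HFD) times their counting error, and each library was kept as 1 sample. Promoters, biotypes and gene overlaps were read from RefSeq for GRCm38.p6, the assembly of mm10. Figures were drawn with matplotlib 3.10.9.

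The members and the 13 other gene lists were chosen with earlier results of these data known. Named were the 10 genes and, from each other list, the first listed, up to 3 DEGs with the largest change in each direction and the 2 with the highest mean TPM, and other names were chosen after their values were seen. The following were varied: a pseudocount of 0.1 or 5, no filter, a mean TPM of at least 5, no variance trend, median-ratio scaling, quantile normalization, a replicate block, a 2-fold limit and each library left out. Leaving out libraries for the number of DEGs, and every alternative for the other lists, were added after seeing the data.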

Additional observations from a re-analysis of the deposited data

How the results depend on the processing

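All 10 fold changes kept their direction under each alternative run (Ms4a2 was not tested at a mean TPM of at least 5), and 0 genes of the set were higher in HFD, also at an unadjusted p under 0.05 in limma. Of the values of single genes under an alternative, 80 stayed on their side of the threshold, 38 lost the call and 1 gained it. The number of genes of the set called lower was 9. It was 5 without a filter, which adds genes to the adjustment, and between 0 and 9 with 1 library left out, the 0 occurring without ND replicate 1 or without ND replicate 2. The remaining alternatives, apart from the block, gave between 6 and 8. Over all genes 3097 DEGs were called, against 2015 at a pseudocount of 5, 1602 at a 2-fold limit and between 0 and 4232 with 1 library left out. Of the genes in the 5 related lists 21 were DEGs, 12 with a 2-fold limit and between 0 and 19 with 1 library left out. A left-out library leaves 1 sample in a diet, which is assumed to vary like the other diet. In those fits without an ND library 3862 and 4024 genes had an unadjusted p under 0.05, of which 25 each were in the related lists.

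Samples with the same replicate number did not deviate together (correlation across genes -0.015), and a shared number was treated as a name, not as a pair. With a replicate block 812 DEGs, 4 genes of the set (Cpa3, Mcpt4, Cma1 and Tpsb2) and 7 genes of the related lists were called. Kit, Fcer1a, Ms4a2, Hdc (adjusted p = 0.0645 in limma) and Gata2 (adjusted p = 0.0505) were not, and all 10 genes of the set had an unadjusted p under 0.05, as had 5466 of the 16849 genes tested. Depth limits Ms4a2, with under 20 reads in each HFD library.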
